A study of Schizosaccharomyces pombe with 12 samples.

Results

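The 8 genes described here encode the tubulins of fission yeast and proteins that start or hold microtubules: the alpha tubulins nda2 and atb2, the beta tubulin nda3, the gamma tubulin gtb1, the gamma-tubulin complex subunits alp4 and alp6, and the microtubule-binding proteins mal3 and peg1. Their transcript IDs in the tables are SPBC16A3.15c.1 (nda2), SPBC800.05c.1 (atb2), SPBC26H8.07c.1 (nda3), SPBC32F12.04.1 (gtb1), SPBC365.15.1 (alp4), SPBC428.20c.1 (alp6), SPAC18G6.15.1 (mal3) and SPAC3G9.12.1 (peg1). They were picked out by these IDs and not by a cut on measured values, though with earlier results of these data known. They are 8 of the 5136 rows in each of the deposited count tables. The series holds 12 libraries of Schizosaccharomyces pombe in mid-log growth, with 3 libraries (A, B and C) per genotype and kind of RNA. The genotypes are delta4dus, whose name is read here as the loss of all 4 dus genes (the dihydrouridine synthases of this yeast), and wild type (WT); the labels give no further alleles and no treatment. Ribosome footprints are the RNA fragments of 28 to 32 nt that ribosomes shield from RNase I, and total RNA was prepared from a frozen portion of each harvest. The labels do not say whether the letters stand for separate cultures, so the p-values rest on the spread between these libraries, which may in part be technical.

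Microtubules are polymers of alpha and beta tubulin dimers, and new ones start from a ring of gamma tubulin held together by partner proteins such as alp4 and alp6. In fission yeast they position the nucleus and mark the cell ends during interphase, and build the spindle in mitosis and meiosis. Dihydrouridine synthases reduce uridine to dihydrouridine, chiefly in tRNA, and the title of the series concerns this base in mRNA and the segregation of meiotic chromosomes.

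The footprint libraries held 1747608 to 2591755 counts in delta4dus and 601969 to 1725344 counts in WT, so WT values of genes with few footprints mostly rest on fewer reads. The total RNA libraries held 1886954 to 2199320 counts in delta4dus and 1900650 to 2033890 counts in WT. The 4 dus genes had 0 to 9.14 footprint CPM (counts scaled to library size) in the delta4dus libraries and 13.2 to 81.8 CPM in the WT libraries, without overlap for any of them. dus1 and dus3 had 0 or 1 count in each delta4dus library, but dus2 still averaged 12.6% of WT and dus4 35.7%, with 6, 7 and 22 counts of dus4 in delta4dus, against 24, 9 and 16 in WT. Library sizes for CPM were adjusted by the trimmed mean of M values (TMM), and log2 fold changes are delta4dus over WT.

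The alpha tubulins nda2 and atb2 lie on chromosome II and encode proteins that are 88.4% identical, with coding sequences that are 76.3% identical, so footprints could in principle be counted to either gene. The longest run that the coding sequences share is 29 bases, at coding bases 1210 to 1238 of nda2 and 1198 to 1226 of atb2. It is shown in capitals with 16 bases on each side, from RefSeq's ASM294v3 assembly. Only a footprint of 28 or 29 bases that lies wholly inside it matches both coding sequences exactly.
nda2: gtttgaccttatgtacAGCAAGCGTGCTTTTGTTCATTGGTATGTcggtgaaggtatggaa
atb2: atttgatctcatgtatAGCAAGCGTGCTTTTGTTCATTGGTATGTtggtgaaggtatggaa
Of the 1341 windows of 28 bases in nda2, 2 (0.149%) occurred unchanged in atb2 and 46 (3.43%) occurred there with at most 2 mismatches. No window was shared with the beta tubulin gene nda3 at that tolerance, and the nda2 and nda3 proteins are 41.8% identical. How the authors' counting treated reads that map to more than 1 place is not given in the sources used here.

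In footprints, 3 of the 8 genes were lower in delta4dus, none was higher and 5 did not pass the test (edgeR's quasi-likelihood test, Benjamini-Hochberg adjusted p under 0.05 over all genes tested). The 3 were alp4, alp6 and peg1, with log2 fold changes of -0.70, -0.69 and -0.66. All 8 passed the filter on low counts. In bulk cultures, fewer cells of a given stage and fewer footprints per cell cannot be told apart. Among all genes, 14.1% of those tested were lower and 14.5% were higher, and the median log2 fold change was -0.15 over the 8 genes and -0.03 over all genes tested. With DESeq2 in place of edgeR none of the 8 passed, although 2 had an unadjusted p under 0.05 there and 4 had one in edgeR.

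The tubulin dimer genes showed no footprint difference that passed the test. nda2, the essential alpha tubulin, had 288.5, 303.6 and 292.9 CPM in delta4dus, against 308.9, 331.1 and 350.4 CPM in WT. Every delta4dus library was below every WT library, as held for 19.9% of all tested genes. The delta4dus mean was 295.0 ± 7.80 CPM against 330.1 ± 20.8 CPM in WT (SD, n = 3 each), or 89.4% of WT. The log2 fold change of nda2 was -0.14 (SE 0.069, 95% interval -0.28 to -0.01), with an unadjusted p of 0.0397 in edgeR and an adjusted p of 0.111. Under scaling by total counts it was -0.35 (adjusted p = 9.1e-05), but that scaling shifted the median of all genes by -0.20, and nda2 less that shift was -0.15. With only genes of a mean of at least 50 counts kept, nda2 also passed in edgeR (-0.19, adjusted p = 0.0127). The median of all genes shifted by -0.05 there, and nda2 less that shift was -0.14.

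atb2, the alpha tubulin that cells can live without, had 221.7, 223.2 and 219.4 CPM in delta4dus, against 187.1, 242.1 and 223.5 CPM in WT. The delta4dus libraries were close together and lay inside the WT range. Its log2 fold change was 0.08 (SE 0.081, interval -0.08 to 0.24, adjusted p = 0.518). nda3, the only beta tubulin of this yeast, had 432.1, 413.9 and 415.0 CPM in delta4dus, against 415.4, 423.2 and 399.9 CPM in WT. The groups overlapped, and the log2 fold change of nda3 was 0.02 (SE 0.062, interval -0.10 to 0.15, adjusted p = 0.821).

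Ratios within a library do not depend on the scaling between libraries. The share of nda2 among alpha tubulin footprints, per kb of coding length, was 56.2%, 57.3% and 56.9% in delta4dus, against 62.0%, 57.4% and 60.7% in WT. The groups did not overlap, but WT library B was close to the delta4dus libraries. The means were 56.8% ± 0.546 in delta4dus and 60.1% ± 2.34 in WT (SD, n = 3 each), a difference of -3.25 percentage points with a two-sided exact permutation p of 0.1, the smallest that 3 against 3 allows. The WT library B share rests on 367 counts, and its Wilson 95% interval on the raw share, 57.8%, was 52.7% to 62.7%.

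The ratio of alpha to beta tubulin footprints per kb was 1.17, 1.26 and 1.22 in delta4dus, against 1.18, 1.34 and 1.42 in WT. The groups overlapped, with means of 1.22 ± 0.0458 in delta4dus and 1.31 ± 0.122 in WT (SD, n = 3 each) and an exact permutation p of 0.3. In every library the pair of alpha tubulin genes together held more footprints per kb than nda3.

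**Figure D1:**
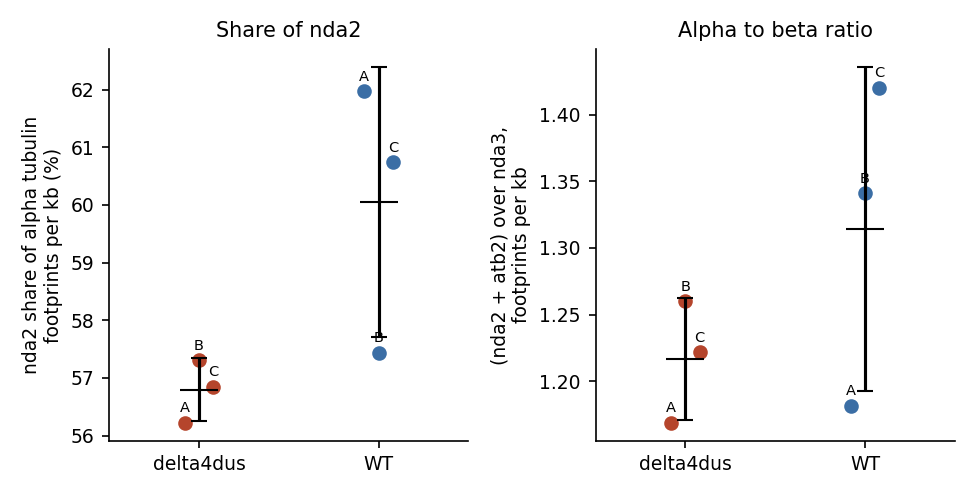
Share of nda2 in alpha tubulin footprints per kb (percent) and ratio of alpha to beta tubulin footprints per kb, delta4dus left of WT. Points are libraries with their letters, and black marks are means with SD (n = 3 each). The share was 56.2% to 57.3% in delta4dus and 57.4% to 62.0% in WT, and the ratio overlapped between the genotypes.

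Among the gamma-tubulin complex genes, gtb1, gamma tubulin itself, had 17.5, 20.2 and 21.2 CPM in delta4dus, against 20.9, 20.3 and 26.6 CPM in WT. The groups overlapped, and its log2 fold change of -0.17 (SE 0.23, interval -0.63 to 0.30) had an adjusted p of 0.657; with a library left out it ran from -0.26 to -0.06 and did not pass. This interval overlaps those of alp4 and alp6, and the difference between these genes was not tested. The libraries held 28, 38 and 51 footprint counts of gtb1 in delta4dus, against 38, 13 and 22 in WT.

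alp4, the partner that binds gamma tubulin in its small complex, had 18.7, 18.1 and 17.4 CPM in delta4dus, against 28.0, 29.7 and 31.4 CPM in WT. The groups did not overlap, as held for 38.8% of all tested genes in either direction and for 19.9% with delta4dus below WT. The means were 18.1 ± 0.642 CPM in delta4dus and 29.7 ± 1.72 CPM in WT (SD, n = 3 each). The log2 fold change of alp4 was -0.70 (SE 0.22, interval -1.14 to -0.26, adjusted p = 0.0112), and it passed with each library left out in turn but not with DESeq2 (adjusted p = 0.0901) or with libraries thinned to equal depth (0.184).

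alp6, the other partner in that complex, had 37.5, 16.5 and 27.4 CPM in delta4dus, against 32.4, 73.4 and 39.9 CPM in WT. The groups overlapped: delta4dus library A was above WT library A, and WT library B stood far above the rest. The log2 fold change of alp6 was -0.69 (SE 0.22, interval -1.13 to -0.26, adjusted p = 0.0102). Without WT library B it was -0.38 (adjusted p = 0.222), and without delta4dus library B it was -0.44 (adjusted p = 0.12). DESeq2 gave alp6 an adjusted p of 0.285.

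Among the microtubule-binding proteins, mal3, the EB1 family protein that tracks growing plus ends, had 63.1, 58.6 and 50.3 CPM in delta4dus, against 56.0, 64.0 and 53.2 CPM in WT. The groups overlapped and the log2 fold change of mal3 was -0.01 (SE 0.15, interval -0.30 to 0.29, adjusted p = 0.979). Its sign turned under several other settings, always with a value near 0.

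peg1, the CLASP family protein that stabilises bundled microtubules, had 19.98, 21.3 and 19.5 CPM in delta4dus, against 27.4, 40.6 and 33.8 CPM in WT. Every delta4dus library was below every WT library, as held for 19.9% of all tested genes. The means were 20.3 ± 0.926 CPM in delta4dus and 34.0 ± 6.59 CPM in WT (SD, n = 3 each). The log2 fold change of peg1 was -0.66 (SE 0.21, interval -1.08 to -0.23, adjusted p = 0.0141). It did not pass without WT library B (-0.54, adjusted p = 0.0694), without delta4dus library C (-0.63, 0.0549), with DESeq2 (0.0792) or with thinned libraries (0.0508).

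The 3 genes that were lower have the longest coding sequences of the 8: 4389 bases in peg1, 2499 in alp6 and 2355 in alp4, against 927 to 1368 in the other 5. Longer genes tended to be lower across the whole table, with a Spearman rho of -0.343 between log2 fold change and coding length over 4490 genes, a description across genes that share the same libraries. Genes with fewer footprints also tended to be lower, with a rho of 0.225 between log2 fold change and mean footprint CPM. Among the 175 genes within 20% of the length of peg1, the median log2 fold change was -0.39 and 44.6% were lower. Among those within 20% of alp4 the median was -0.15 with 19.3% lower, and around alp6 it was -0.17 with 21.6% lower; around nda2 it was -0.03 with 12.3% lower. The part of length or of footprint level in the results for these genes was not tested. The same 3 genes have coding GC contents of 36.0% to 38.2%, against 40.5% to 43.7% in the other 5. Whether GC content goes with log2 fold change across all genes was not tested.

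**Figure D2:**
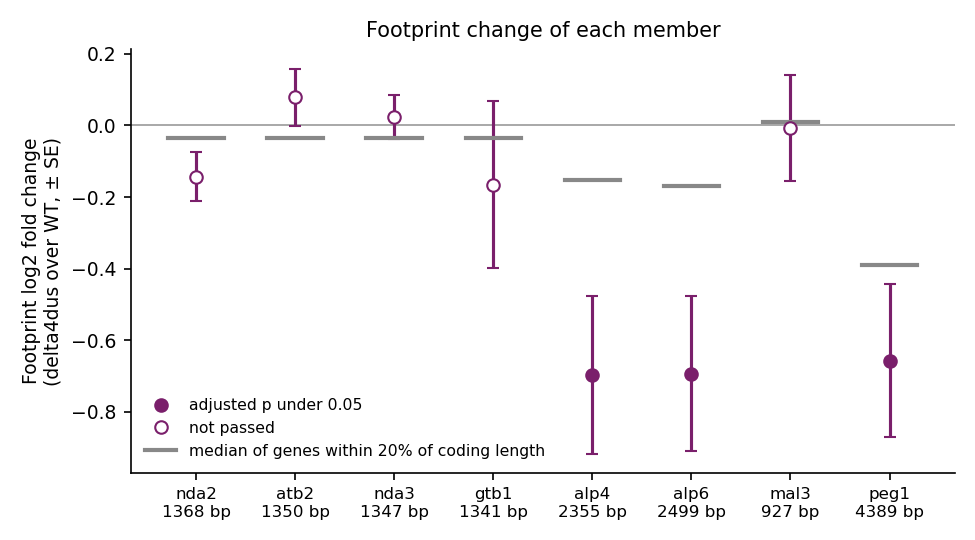
Footprint log2 fold change (delta4dus over WT) of the 8 genes, with coding length in base pairs under each name. Circles with bars are estimates ± SE, filled where the adjusted p was under 0.05, and grey lines are medians of genes within 20% of the same coding length. alp4, alp6 and peg1 are filled and lie below their grey lines of -0.15, -0.17 and -0.39.

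Per kb of coding length, the order of footprint level was nda3, nda2, atb2, mal3, gtb1, alp6, alp4 and peg1 in delta4dus, with means of 312.1, 215.6, 164.0, 61.8, 14.6, 10.9, 7.68 and 4.62 CPM per kb. In WT the order differed in 1 place, with alp6 (19.4 CPM per kb) above gtb1 (16.8). The other WT means were 306.5 for nda3, 241.3 for nda2, 161.2 for atb2, 62.3 for mal3, 12.6 for alp4 and 7.74 CPM per kb for peg1. Neighbours in this order whose libraries overlapped were gtb1 with alp6 and alp6 with alp4 in delta4dus, and alp6 with gtb1 in WT. Among 4490 genes, nda3 stood at the 89.0th percentile of level per kb in delta4dus and the 89.6th in WT, and peg1 at the 5.01th in delta4dus and the 9.4th in WT. The tubulin dimer genes thus had many footprints per kb for this table, and gtb1, alp4, alp6 and peg1 had few.

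**Figure D3:**
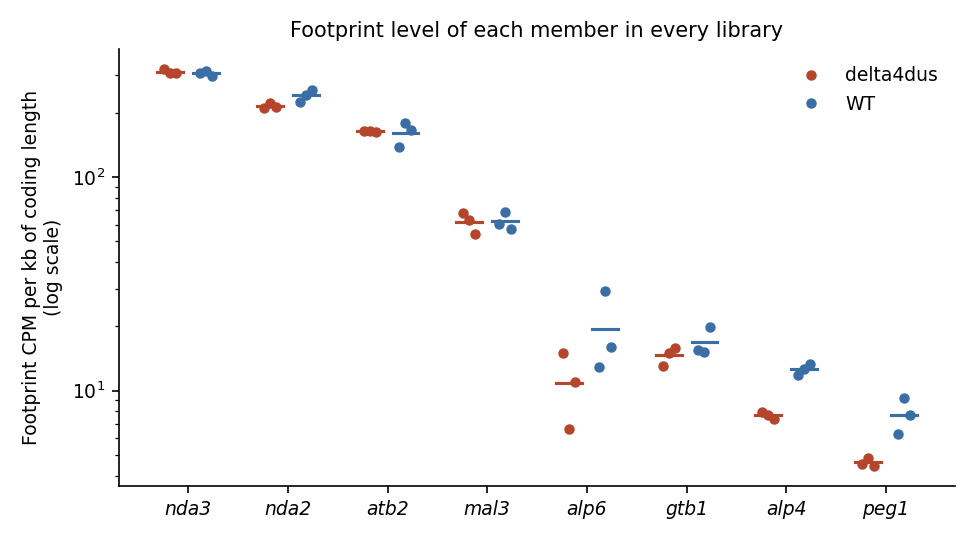
Footprint CPM per kb of coding length (log axis) of the 8 genes, in order of their WT means, delta4dus left of WT. Points are libraries and short lines are group means. The delta4dus libraries lie below all WT libraries for nda2, alp4 and peg1, and the groups overlap for the other genes. Among all tested genes, 19.9% had all delta4dus libraries below all WT libraries.

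Other genes of the microtubule system were counted the same way in footprints. They formed 6 lists chosen by known role, though with earlier results of these data known. Of 49 genes 47 were tested, 1 was higher, 3 were lower and 43 did not pass, with a median log2 fold change of -0.01; among all genes tested 28.6% passed in either direction. In the list of gamma-tubulin complex and docking proteins 1 of 7 was lower: pcp1, the pericentrin-like anchor of the complex at the spindle pole body, had 15.0, 15.4 and 16.6 CPM in delta4dus, against 32.4, 26.6 and 23.0 CPM in WT. All delta4dus libraries of pcp1 were below all WT libraries, as held for 19.9% of all tested genes. Its log2 fold change was -0.85 (SE 0.23, adjusted p = 0.0024). The call was lost without WT library A (-0.63, adjusted p = 0.136), with DESeq2 (0.0516) and with thinned libraries (0.0527).

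Among the tubulin folding cofactors 4 of 5 were tested and 1 was lower. That gene was alp41, a small Arl2-type GTPase needed to form tubulin dimers, with 8, 9 and 12 footprint counts in delta4dus, against 27, 11 and 17 in the shallower WT libraries. It averaged 4.92 ± 0.113 CPM in delta4dus and 17.5 ± 2.88 CPM in WT (SD, n = 3 each). Its log2 fold change was -1.76 (SE 0.34, adjusted p = 2.0e-05; 0.000854 with DESeq2), and alp41 passed with each library left out in turn; once libraries were thinned to equal depth its counts were too low to be tested. The 8 subunits of the chaperonin ring that folds tubulin and actin ran from -0.01 to 0.14 and none passed (edgeR, 1 with an unadjusted p under 0.05, and 0 called with DESeq2).

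None of the 8 plus-end and lattice proteins passed either, with values from -0.38 to 0.04 and a median of -0.28, and none had an unadjusted p under 0.05 in edgeR or DESeq2. Of 11 kinesin and dynein genes 1 was lower: dhc1, the dynein heavy chain that drives nuclear movement in meiosis, had 5, 2 and 5 counts in delta4dus, against 27, 16 and 23 in WT. Its log2 fold change was -3.29 (SE 0.40, adjusted p = 1.7e-10, or 2.1e-08 with DESeq2), and dhc1 passed with each library left out in turn. Once libraries were thinned to equal depth, the counts of dhc1 were too low to be tested. The 3 lower genes of the lists have coding lengths of 12591 bases in dhc1, 3627 in pcp1 and 561 in alp41. The part of length in their results was not tested. Of 10 spindle pole body genes 9 were tested and 1 was higher: ppc89, a core scaffold of the pole body, had 29.97, 33.0 and 23.7 CPM in delta4dus, against 13.7, 21.9 and 25.4 CPM in WT. These overlapped, and the log2 fold change of ppc89 of 0.62 (SE 0.24, adjusted p = 0.0372) was lost under 7 alternatives. It did not pass without WT library A (0.26, adjusted p = 0.559), without delta4dus library A (0.59, 0.0779) or without delta4dus library B (0.51, 0.153). Nor did ppc89 pass with DESeq2 (0.60, 0.21), the replicate block (0.57, 0.101), total count scaling (0.42, 0.172) or thinned libraries (0.44, 0.386).

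**Figure D4:**
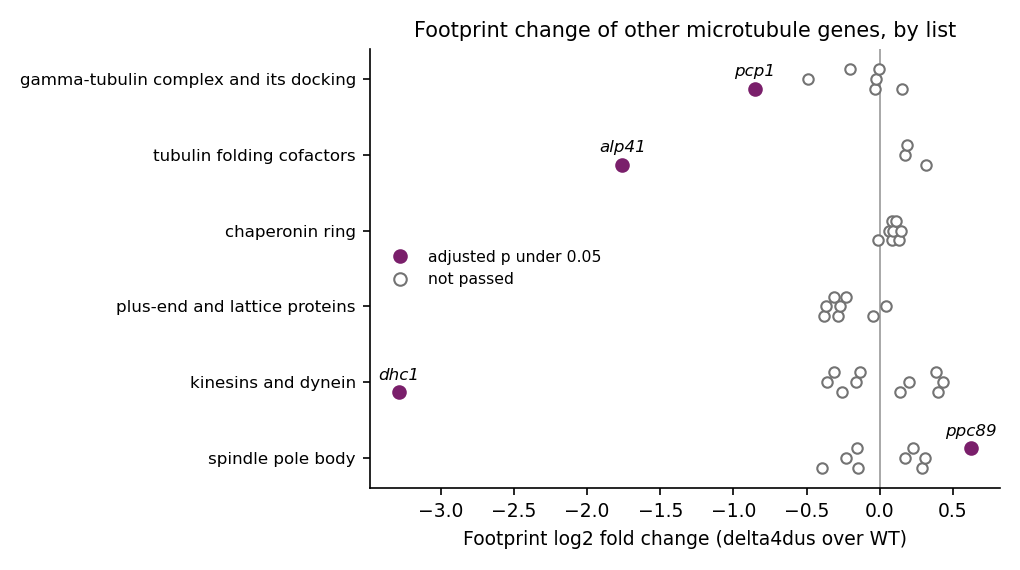
Log2 fold changes in footprints (delta4dus over WT) of the tested genes in the 6 lists of microtubule genes, 1 circle per gene, filled where the adjusted p was under 0.05. dhc1, alp41 and pcp1 were lower and ppc89 was higher, and the other 43 genes did not pass the test.

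The total RNA table could not be read as mRNA levels of these genes. In 1920 genes, a protein-coding gene overlaps the exons on the opposite strand. Across them, total RNA CPM rose with the footprint signal of that other gene (Spearman rho 0.695). That signal was footprint CPM per kb times the bases of overlap, so the value also reflects the length of overlap. With the gene's own footprint CPM, an unlike measure, rho was -0.239, and across genes without such an overlap it was -0.204. Where no protein-coding gene overlapped (3187 genes), rows had a median of 8.19 CPM, against 49.8 CPM where one did. The strand setting of the counting is not given in the sources used here, and values of this table are therefore given as rows and not as mRNA. The ratio of footprints to total RNA is likewise not read as a measure of translation per mRNA.

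Among the 8 rows, those of nda2, atb2 and mal3 held the fewest counts. The nda2 row held 8, 9 and 10 counts in delta4dus and 14, 8 and 9 in WT, beside 1737 footprints summed over the delta4dus libraries and 1065 over WT. The atb2 row held 15, 2 and 8 counts in delta4dus and 7, 6 and 2 in WT, and the mal3 row 3, 3 and 2 in delta4dus and 4, 3 and 4 in WT. These 3 rows fell below the filter and were not tested.

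Of the 5 rows tested, 3 passed: nda3 higher, gtb1 and peg1 lower; among all rows 22.9% passed, 12.5% higher and 10.4% lower. The nda3 row, which no annotated gene overlaps on the opposite strand, had 25.1, 23.4 and 29.3 CPM in delta4dus, against 17.3, 13.9 and 15.0 CPM in WT. All delta4dus libraries were above all WT libraries, and 37.1% of all tested rows had no overlap in either direction; the log2 fold change was 0.75 (SE 0.19, adjusted p = 0.0136; 0.0672 with DESeq2).

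The gtb1 and peg1 rows were the only high ones, and they are the only members whose exons overlap a protein-coding gene on the opposite strand. The gtb1 row had 412.3, 406.2 and 472.4 CPM in delta4dus, against 518.3, 538.5 and 508.5 CPM in WT, with a log2 fold change of -0.28 (SE 0.069, adjusted p = 0.0102). Its exons share 893 bases with cwf12, 3 of them in the gtb1 coding sequence. The peg1 row had 290.4, 280.4 and 263.2 CPM in delta4dus, against 335.6, 328.7 and 324.6 CPM in WT, with a log2 fold change of -0.24 (SE 0.067, adjusted p = 0.018). Its exons share 4705 bases with msw1, 4078 of them in the peg1 coding sequence. The exons of nda2, atb2, gtb1, alp4, alp6 and mal3 overlap annotated noncoding RNAs on the opposite strand, which have no rows in the tables. For gtb1 that overlap was 1206 bases of its exons, 1087 of them in its coding sequence.

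For both rows the delta4dus libraries lay below all WT libraries, where 37.1% of all tested rows had no overlap in either direction. Under total count scaling, which shifted the median of all rows by 0.19, neither passed (log2 fold changes of -0.09 for gtb1 and -0.05 for peg1). gtb1 did not pass without delta4dus library A or B, and peg1 did not pass without delta4dus library B or C or WT library A.

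The partner rows can be set beside these. The msw1 row of the total RNA table had 587.2, 588.0 and 620.9 CPM in delta4dus, against 726.9, 720.6 and 705.9 CPM in WT, and was lower (log2 fold change -0.26, SE 0.056, adjusted p = 0.00487). Footprints of msw1 itself did not pass (0.27, adjusted p = 0.4). The cwf12 row did not pass (-0.11, adjusted p = 0.352), nor did its footprints (-0.17, 0.616). Whether the msw1 row holds reads of peg1 mRNA was not tested.

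The alp4 row had 27.2, 21.5 and 28.8 CPM in delta4dus, against 23.8, 22.8 and 19.8 CPM in WT, and did not pass (log2 fold change 0.22, adjusted p = 0.432). The alp6 row had 34.4, 31.1 and 41.1 CPM in delta4dus, against 31.4, 28.3 and 30.5 CPM in WT, and did not pass either (0.24, adjusted p = 0.323). With a library left out these values ran from 0.11 (without WT library C) to 0.34 for alp4 and from 0.12 (without delta4dus library C) to 0.32 for alp6, and none passed. The authors' deposited table gives total RNA changes of -0.04 for alp4 and -0.02 for alp6.

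**Figure D5:**
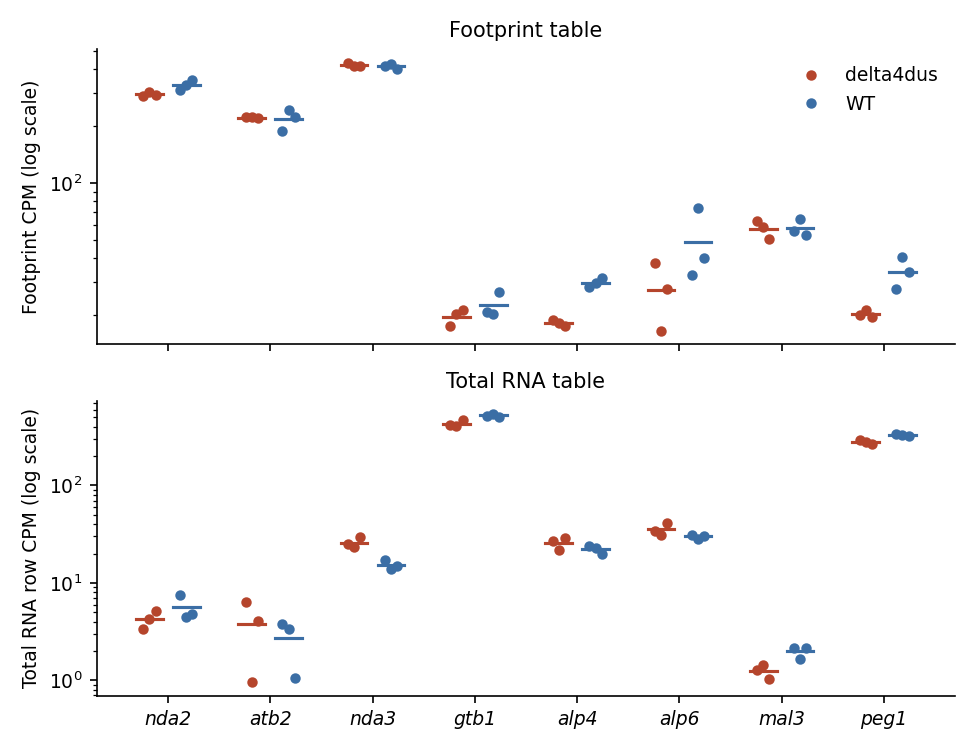
Footprint CPM (top) and total RNA row CPM (bottom) of the 8 genes on log axes, delta4dus left of WT, with points for libraries and short lines for group means. The gtb1 and peg1 rows are high in total RNA and low in footprints, while nda2, atb2 and mal3 are the reverse.

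The difference between the assays, tested as the genotype by assay interaction, was lower in delta4dus for 3 of the 5 genes tested; 13.9% of all tested genes were lower and 6.34% were higher, with a median of all genes at -0.15. The log2 values were -0.69 for nda3 (SE 0.19, adjusted p = 0.00846), -0.89 for alp4 (SE 0.27, 0.0176) and -0.90 for alp6 (SE 0.32, 0.0425). This fit did not match footprint and total RNA libraries by letter. With a block for each genotype and letter, the same 3 genes passed. For nda3 the footprint log2 fold change was 0.02 and that of the total RNA row was 0.75. peg1 (-0.38, adjusted p = 0.186) and gtb1 (0.15, 0.678) did not pass, though peg1 did under total count scaling (-0.77, 0.00493), which shifted the median of all genes by -0.39. Leaving out 1 replicate at a time, its footprint and total RNA libraries together, left 0 to 2 of the 3 genes. It was 0 without delta4dus replicate C, though 3 had an unadjusted p under 0.05 in edgeR, and 1 without WT replicate B or C.

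The authors' deposited table gives its own log2 changes for these genes, with groups headed control and treated and taken here as WT and delta4dus because its footprint value for dus1 is -10.9. In the authors' deposited table the footprint changes were -0.62 for alp4, -0.73 for alp6 and -0.61 for peg1, and -0.06, 0.14 and 0.11 for nda2, atb2 and nda3. The p-values of the authors' deposited table are taken here as those of its footprint to RNA ratio, and it gives none for footprints alone. For that ratio none of the 8 genes had an adjusted p under 0.05 in the authors' deposited table, where 15.3% of rows did, and 1 of them (nda3) had an unadjusted final p under 0.05. For nda2 the authors' deposited table gives a ratio change of 0.60 with p-values of 0.123 and 1.5e-10 from its 2 versions, beside a total RNA row that held 27 counts summed over delta4dus and 31 over WT.

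By correlation of footprint log2 CPM over the 6 footprint libraries, the genes most like nda2 among 3821 (nda2 included) were cox24 (r = 0.987), gta1 (0.9855) and vms1 (0.9795). These are the highest of many values from 6 libraries, and whether they exceed what chance would give was not tested. gta1 held 11 to 30 counts per library. None of them passed the footprint test, with adjusted p of 0.319, 0.49 and 0.32. The values compared come from the same 6 libraries and share their scaling factors.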

How the data were processed

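The authors deposited whole-number counts per transcript for footprints and total RNA, and a comparison table with log2 changes and p-values, per the file headers. Per the submitters' processing notes, Trimmomatic 0.36, Bowtie2 2.4, HISAT2 and featureCounts were used with ASM294v2; strand and multi-mapping settings are not given in the sources used here. The deposited log2 values and deposited p-values were copied as they stand. ASM294v3 served for names, strand, coding sequence and overlaps only.

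Counts were fitted for all rows with edgeR 4.0.16 in R 4.3.3 (TMM, default filterByExpr, two-sided quasi-likelihood test, Benjamini-Hochberg, 0.05), each assay alone, and the assay difference as an interaction over 12 libraries. DESeq2 1.42.0, other scalings, filters, thinning to 601969 counts (20 draws), a replicate block and left-out libraries were alternatives. Fits were tested on simulated counts. Each edgeR SE is the absolute log2 fold change over the square root of the F statistic of its test. Intervals on shares are Wilson intervals and cover counting error only. The 8 genes were always named; of other lists, the genes that passed, and the 3 genes most like nda2. The members and lists were chosen with earlier results of these data known. All 12 columns were mapped, with 0 left over. Chi-square per degree of freedom between replicates was 1.45 to 1.66 in footprints and 1.75 to 4.57 in total RNA, so no pair was taken as 1 library.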

Additional observations from a re-analysis of the deposited data

How the results depend on the processing

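In footprints 3 of the 8 genes passed; this became 5 with total count scaling (nda2 and nda3 joined), 0 with DESeq2, 1 with a mean of at least 50 counts (4 genes tested), 1 with thinned libraries and 1 to 3 with a library left out (1 without WT B). Total RNA rows gave 3, then 1 with total count scaling and 1 to 3 with a library left out (1 without delta4dus B). The ratio gave 3, then 4 with total count scaling (peg1 joined) and 1 with DESeq2. It gave 0 to 2 with the footprint and total RNA libraries of 1 replicate left out together. No member was left for the ratio at a mean of 50 counts. nda2 passed with total count scaling (-0.35) and at a mean of 50 counts (-0.19, where the median of all genes shifted by -0.05); with a library left out it ran from -0.20 to -0.10. Signs turned for atb2 (total count scaling -0.13; with a library left out -0.0605, without WT A, to 0.1496), nda3 (total count scaling -0.18; mean of 50 counts -0.0283; thinned -0.0095), mal3 (DESeq2 size factors 0.0069; DESeq2 0.0093; no filter 8e-04; thinned 0.0127; with a library left out -0.0725 to 0.095, above 0 without delta4dus C or WT B) and the gtb1 ratio (total count scaling -0.24). The cause was not tested. With the letter as a replicate block, footprints gave 2 (alp6 lost, adjusted p = 0.0877) and total RNA rows 2 (peg1 lost, 0.057), and mal3 turned to 0.0137. For the ratio the block was genotype and letter together, and it gave 3. Same-letter libraries of delta4dus and WT correlated by only 0.016 to 0.0732 in footprints, though each best with its own letter. The letters were therefore not taken as pairs between the genotypes.

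Over all genes, footprints had 654 higher and 635 lower; total count scaling gave 334 and 1397, DESeq2 483 and 335, thinning 415 and 291. Total RNA rows had 475 and 394; total count scaling gave 825 and 81, DESeq2 size factors 376 and 527, DESeq2 229 and 420, the replicate block 297 and 197. The ratio had 211 and 463; total count scaling gave 69 and 1231, DESeq2 size factors 262 and 380, DESeq2 212 and 283, a mean of 50 counts 89 and 137, thinning 118 and 246. Low counts limit gtb1, alp4, alp6 and peg1, with 13 to 66 footprints per library.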
